A study of Mus musculus with 8 samples.

Results

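Smooth muscle shortens by sliding actin filaments past myosin, and 41 genes that encode that machinery and its controls were examined in mouse aortas in which Tsc1 was deleted in smooth muscle. The 41 genes were chosen by name, as the contractile, thin filament, myosin phosphatase and SRF/myocardin genes present in the deposited expression table, and all 41 were found among its 23993 gene symbols. Bulk RNA was sequenced from thoracic aortas of C57BL/6 males that were 24 weeks old. The Tsc1 knockout group (Tsc1fl/fl.Myh11-CreERT2.mT/mG, n = 4) carried 2 floxed Tsc1 alleles, and the control group (Myh11-CreERT2.mT/mG with Tsc1+/+, n = 4) carried wild-type Tsc1. Both groups carried the Myh11-CreERT2 transgene, in which the promoter of the smooth muscle myosin gene drives a tamoxifen-dependent Cre recombinase, and the mT/mG fluorescent reporter of recombination, and both were given tamoxifen at 1.5 weeks of age. Although the samples are labelled as smooth muscle cells, RNA was extracted from crushed aortas and no sorting is described, so endothelial, adventitial and attached cells contribute RNA. In such bulk samples fewer cells of a type and less RNA per cell cannot be told apart. The labels number the libraries but do not say in words that each is a separate animal, so p-values measure the spread between these samples.

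Contraction starts when calcium and calmodulin activate myosin light chain kinase (Mylk), which phosphorylates the regulatory light chain and lets smooth muscle myosin pull on actin. Myosin phosphatase removes that phosphate, and an inhibitor protein can hold the phosphatase back. Transcription of much of the apparatus depends on serum response factor (SRF), which binds CArG boxes and is joined there by myocardin or by the actin-regulated coactivators MRTF-A and MRTF-B, listed in the table under the older symbols Mkl1 and Mkl2. Tsc1 encodes hamartin, which with tuberin restrains the growth kinase mTORC1.

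Levels are in FPKM, the fragments assigned to a gene divided by transcript length and library depth, so genes of different length can be compared. How the submitters scaled the libraries to one another is not given in the sources used here. Differences are given on the log2(FPKM + 1) scale, knockout minus control, and a gene is said to have risen or fallen where limma's adjusted p was under 0.05 over the 12107 genes that averaged 1 FPKM or more. All 41 genes passed that filter. Tsc1 itself had 2.99, 3.58, 3.37 and 3.71 FPKM in knockouts 1 to 4, against 4.03, 4.82, 4.95 and 6.32 FPKM in controls 1 to 4, so every knockout lay below every control (log2 difference -0.44, SE 0.12, limma adjusted p = 0.0190). Its values count transcripts of cells without Cre, and of the recombined allele where they remain. The libraries held 11867 to 12083 genes at 1 FPKM or more, and their depth relative to control 1 ran from 0.763 in knockout 1 to 2.45 in control 3. The absolute depth is unknown, so no counting interval can be given.

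The letters upstream of these genes are shown because CArG boxes lay in front of genes that fell and of genes that did not pass the test. RefSeq promoter entries on GRCm38.p6, the assembly called mm10, were matched for 34 of the 41 genes, and those missing from the table were Myh11, Actg2, Tagln, Rock1, Myocd, Csrp2 and Nexn. A CArG box, that is CC, then 6 letters that are each A or T, then GG, was searched in the 250 bases upstream of each listed start. The pattern includes its own reverse complement, so a match on one strand is a match on both. It was present for 6 of the 34 genes, or 17.6%, and for 439 of 27025 genes in the whole promoter table, or 1.62%. With 1 G or C allowed within the core it was present for 10 of the 34 genes, or 29.4%, and for 9.78% of all. A match is a description of letters and not of binding.

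Upstream sequences follow 5′ to 3′ on the strand of the gene, with the CArG box in capitals. Myl6 (chr10:128493010-128493259, minus strand, upstream of the second of 2 listed starts), Ldb3 (chr14:34588682-34588931, minus strand) and Myl9 (chr2:156775214-156775463, plus strand) are the genes past the threshold whose matched promoter held a box. Srf (chr17:46556163-46556412, minus strand) and Cnn2 (chr10:79988350-79988599, plus strand) held boxes but did not pass the test, and were picked for contrast after their values were seen.
Myl6: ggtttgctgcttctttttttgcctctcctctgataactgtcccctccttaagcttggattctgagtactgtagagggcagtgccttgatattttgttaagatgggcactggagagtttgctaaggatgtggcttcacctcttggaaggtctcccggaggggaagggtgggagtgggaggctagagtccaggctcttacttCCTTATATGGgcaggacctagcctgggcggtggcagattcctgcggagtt
Ldb3: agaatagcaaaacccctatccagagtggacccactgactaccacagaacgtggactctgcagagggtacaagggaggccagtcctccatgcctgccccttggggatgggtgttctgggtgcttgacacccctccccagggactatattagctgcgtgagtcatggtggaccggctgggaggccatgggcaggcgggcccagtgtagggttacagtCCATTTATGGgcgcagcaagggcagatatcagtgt
Myl9: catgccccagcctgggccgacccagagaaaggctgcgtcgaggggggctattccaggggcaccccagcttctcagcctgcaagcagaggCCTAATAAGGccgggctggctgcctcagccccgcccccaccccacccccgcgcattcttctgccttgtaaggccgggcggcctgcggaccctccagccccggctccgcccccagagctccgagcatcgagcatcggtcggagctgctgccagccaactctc
Srf: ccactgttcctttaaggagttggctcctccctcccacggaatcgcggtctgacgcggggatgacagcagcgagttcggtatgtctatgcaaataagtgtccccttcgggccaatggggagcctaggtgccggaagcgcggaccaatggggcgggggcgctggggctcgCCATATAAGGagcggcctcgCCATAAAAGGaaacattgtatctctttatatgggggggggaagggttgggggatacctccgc
Cnn2: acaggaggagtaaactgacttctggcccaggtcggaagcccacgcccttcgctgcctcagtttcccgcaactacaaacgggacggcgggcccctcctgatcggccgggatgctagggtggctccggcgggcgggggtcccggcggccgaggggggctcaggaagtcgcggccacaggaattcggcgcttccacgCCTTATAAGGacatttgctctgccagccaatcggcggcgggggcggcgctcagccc
The box begins 50 bases upstream of the start in Myl6, 35 in Ldb3, 161 in Myl9 and 56 in Cnn2, while Srf holds a pair that begin 82 and 62 bases upstream. Myl6, Myl9 and Ldb3 fell in the knockout. Srf, Cnn2 and Fhl1, the other genes with a box, had log2 differences of -0.25, 0.03 and -0.15 in that order and did not pass the test.

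Transcripts of the apparatus were mostly at lower levels in the knockout aortas, and the size of the difference varied widely from gene to gene. Of the 41 genes 21 fell and 1 rose, while 19 did not pass the test. Over all tested genes 15.0% fell and 17.1% rose. The median log2 difference of the 41 genes was -0.38, against 0.01 over all tested genes. Of the 41 differences 38 were negative, against 5945 of all 12107 tested genes. All 4 knockouts lay below all 4 controls for 20 of the 41 genes, against 15.6% of all tested genes, and above them for 2, against 18.3%. Together the 41 genes made up 6.21%, 8.04%, 6.40% and 7.69% of the summed FPKM of tested protein-coding genes in knockouts 1 to 4, against 9.23%, 9.14%, 9.34% and 9.23% in controls 1 to 4. Every knockout had a smaller share than every control, and knockouts 1 and 3 had smaller shares than knockouts 2 and 4. That order depends on the denominator. Of the FPKM of all genes in the table, which summed to 453564 to 467703 in knockouts and 483615 to 937271 in controls, the 41 genes made up 5.83%, 7.55%, 5.99% and 7.21% in knockouts 1 to 4, against 5.55%, 4.49%, 7.26% and 8.69% in controls 1 to 4, and the groups overlapped. Controls 1, 2 and 3 each held 1 short noncoding RNA, named after its value was seen and listed at 0 in every other library: Mir7036 at 267696 FPKM in control 1, Scarna17 at 446002 FPKM in control 2 and Mir3064 at 101808 FPKM in control 3. Without these 3 RNAs the share of the 41 genes was 5.83% to 7.55% in knockouts and 8.57% to 8.76% in controls, without overlap.

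**Figure D1:**
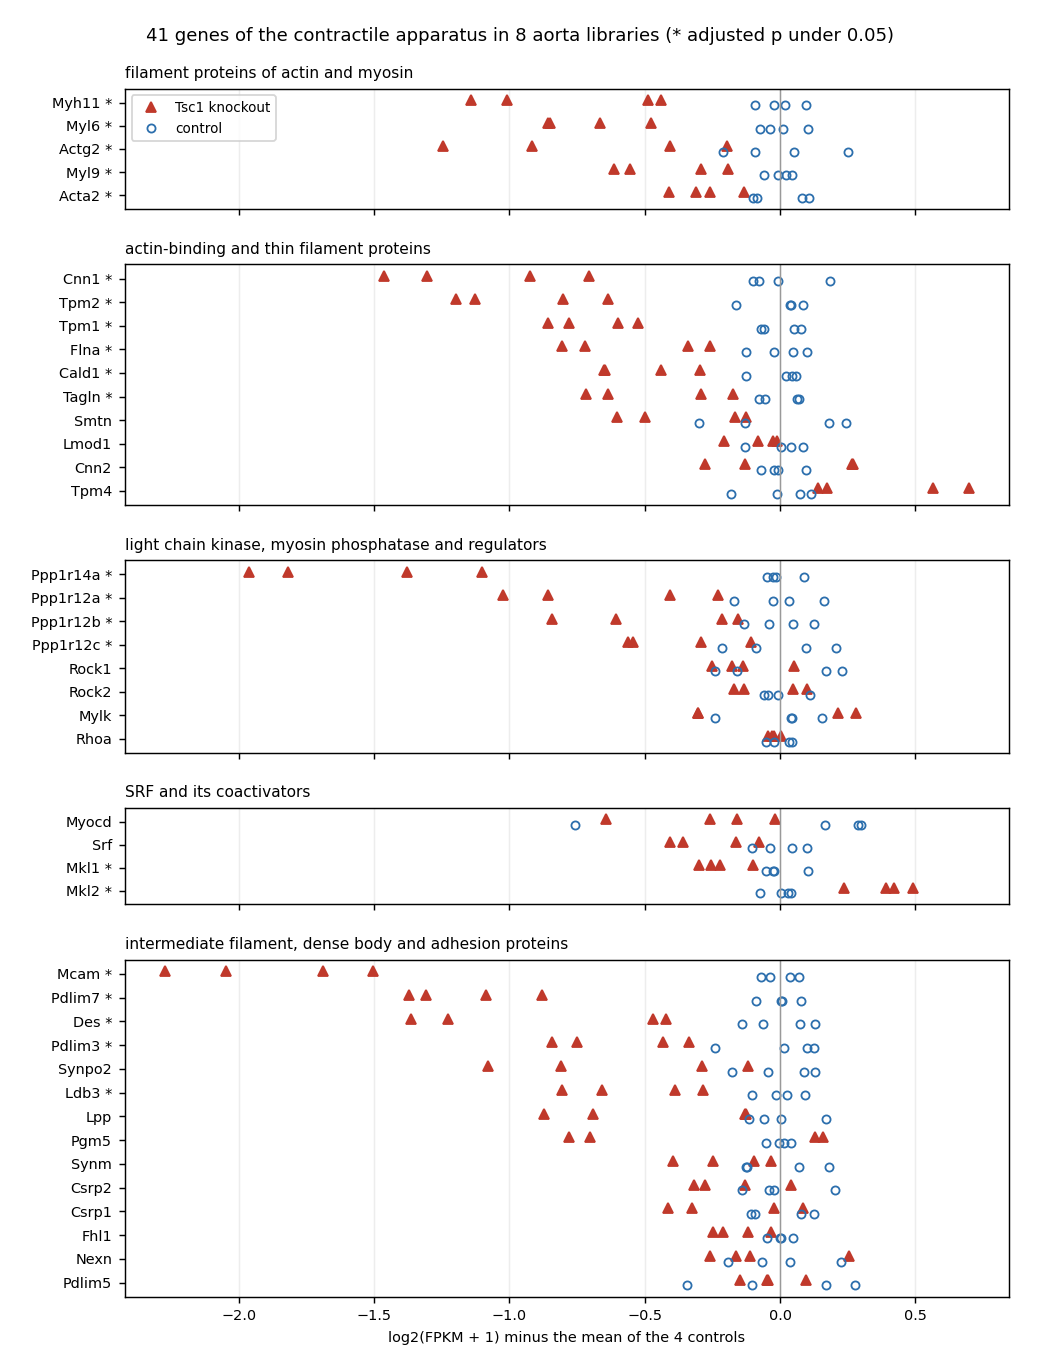
Each of the 41 genes in each library, as log2(FPKM + 1) minus the mean of the 4 controls, for the Tsc1 knockout (filled triangles) and the control (open circles), grouped by role; an asterisk marks a limma adjusted p under 0.05. The triangles of Mcam and Ppp1r14a lie farthest left, those of Mkl2 and Tpm4 lie right of every control, those of Mylk lie on both sides of the controls, and those of Rhoa lie among them.

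All 5 actin and myosin filament genes fell, with a median log2 difference of -0.69. Myh11 (chromosome 16, 14194527 to 14292188), the smooth muscle myosin heavy chain whose promoter also drives the Cre in both groups, had 777, 1263, 850.1 and 1220.4 FPKM in knockouts 1 to 4, against 1608, 1688, 1736 and 1831 FPKM in controls 1 to 4. It averaged 1027 ± 249.7 FPKM in knockouts and 1716 ± 93.4 FPKM in controls (SD, n = 4 each), a log2 difference of -0.77 (SE 0.16, limma adjusted p = 0.00615). No knockout reached the lowest control, and knockouts 1 and 3 were the low ones. Myl6 (chromosome 10, 128490859 to 128493886), the essential light chain, had 2912, 3795, 2924 and 3326 FPKM in knockouts 1 to 4, against 5311, 5143, 5669.5 and 5008 FPKM in controls 1 to 4. Its log2 difference was -0.71 (SE 0.09, limma adjusted p = 6.77e-04), and the gap between the groups was wider than the range within either. Myl9 (chromosome 2, 156775408 to 156781657), the regulatory light chain that the kinase phosphorylates, had 3236, 4329.5, 3376 and 4044 FPKM in knockouts 1 to 4, against 4755, 4927, 5101 and 5033 FPKM in controls 1 to 4. It fell with a smaller difference than Myl6 (log2 difference -0.41, SE 0.10, limma adjusted p = 0.0112), with no overlap of the groups.

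The smooth muscle actins fell as well, with calls nearer the threshold. Acta2 (chromosome 19, 34240336 to 34255585), the vascular smooth muscle actin, had 5745, 6966, 6167 and 6384 FPKM in knockouts 1 to 4, against 8223, 7196, 8090.0 and 7126 FPKM in controls 1 to 4. Its log2 difference was -0.28 (SE 0.08, limma adjusted p = 0.0260), the smallest of the 5, and the groups did not overlap, although knockout 2 came close to controls 2 and 4. The Acta2 call was lost when any 1 of knockouts 1 and 3 or controls 1 and 3 was left out, with log2 differences of -0.23 to -0.27. Actg2 (chromosome 6, 83512909 to 83536251), the enteric smooth muscle actin, had 162, 336, 203 and 290.0 FPKM in knockouts 1 to 4, against 332, 360.0, 458 and 399 FPKM in controls 1 to 4. Knockout 2 lay above control 1, so the groups overlapped, and the log2 difference of -0.69 (SE 0.22, limma adjusted p = 0.0393) lost its call without knockout 1 or 3 or without any 1 control, with values of -0.51 to -0.76. These were among the most abundant transcripts of the vessel in both genotypes. Among 11093 tested protein-coding genes ranked by mean FPKM, Acta2 stood at rank 2 in knockouts and rank 1 in controls, Myl6 at rank 8 in knockouts and 4 in controls, Myl9 at rank 6 in knockouts and 5 in controls, and Myh11 at rank 35 in knockouts and 19 in controls.

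Of the 10 actin-binding and thin filament genes 6 fell and 4 did not pass the test, with a median log2 difference of -0.48. Cnn1 (chromosome 9, 22099221 to 22109221), the smooth muscle calponin that inhibits the actomyosin ATPase, had 411, 695, 459 and 598 FPKM in knockouts 1 to 4, against 1130.0, 1076, 1289.8 and 1058 FPKM in controls 1 to 4. It averaged 541 ± 129.7 FPKM in knockouts and 1138 ± 105 FPKM in controls (SD, n = 4 each), a log2 difference of -1.10 (SE 0.16, limma adjusted p = 0.00112). Every knockout was below every control by a wide gap. Its paralog Cnn2 (chromosome 10, 79988600 to 79995400), which is also made in nonmuscle cells, had 302, 229, 303 and 207 FPKM in knockouts 1 to 4, against 248, 239, 269 and 250.05 FPKM in controls 1 to 4. Knockouts 1 and 3 lay above all controls and knockouts 2 and 4 below them, so that the log2 difference over all libraries was 0.03 (SE 0.13, limma adjusted p = 0.866).

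Tropomyosins, which lie along the actin filament and gate its access to myosin, split by gene. Tpm1 (chromosome 9, 67022590 to 67049672) had 974, 1164, 923 and 1104 FPKM in knockouts 1 to 4, against 1733, 1595, 1768 and 1606 FPKM in controls 1 to 4, and fell by 0.69 on the log2 scale (SE 0.08, limma adjusted p = 4.76e-04). Tpm2 (chromosome 4, 43513726 to 43523583) had 599, 884, 629.9 and 788 FPKM in knockouts 1 to 4, against 1228, 1416, 1411 and 1459 FPKM in controls 1 to 4, and fell by 0.94 (SE 0.13, limma adjusted p = 8.08e-04). Both kept a clear gap between the groups. Tpm4 (chromosome 8, 72135288 to 72153142), whose products are mainly cytoskeletal tropomyosins, had 214, 149, 195 and 145 FPKM in knockouts 1 to 4, against 138, 131, 143 and 116 FPKM in controls 1 to 4. All 4 knockouts were above all 4 controls, but the log2 difference of 0.39 (SE 0.13, limma adjusted p = 0.0513) missed the threshold. Without knockout 2 it was 0.47 and without knockout 4 it was 0.48, and both passed. Gene-level FPKM do not separate the muscle and nonmuscle isoforms of Tpm1, nor those of Cald1.

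The remaining thin filament genes showed the same range. Cald1, caldesmon, which tethers actin and myosin, had 408 to 523 FPKM in knockouts and 588 to 668 FPKM in controls and fell by 0.51 on the log2 scale (SE 0.09, limma adjusted p = 0.00311). Flna, filamin A, an actin crosslinker, had 919 to 1343 FPKM in knockouts and 1474 to 1723 FPKM in controls and fell by 0.53 (SE 0.13, limma adjusted p = 0.0124). Tagln, transgelin, an abundant actin-bundling protein, had 3515, 5129.9, 3718 and 4724 FPKM in knockouts 1 to 4, against 5562, 6065, 5483 and 6037 FPKM in controls 1 to 4, and fell by 0.45 (SE 0.12, limma adjusted p = 0.0206). For these 3 genes the groups did not overlap, and the Tagln call was lost without knockout 3 (-0.39), control 2 (-0.43) or control 4 (-0.43). Smtn, smoothelin, a marker of contractile smooth muscle, had 439.9 to 612 FPKM in knockouts and 544 to 793 FPKM in controls, a log2 difference of -0.35 that did not pass (SE 0.15, limma adjusted p = 0.108). It passed among libraries 2 and 4 of each genotype alone (-0.36, limma adjusted p = 0.0222), and also when a term for odd against even library numbers was added to the fit (-0.35, limma adjusted p = 0.00156). Lmod1, leiomodin, a nucleator of actin filaments in smooth muscle, had 359.5 to 412 FPKM in knockouts and 379 to 440.5 FPKM in controls, a log2 difference of -0.08 (SE 0.07). Smtn and Lmod1 overlapped between groups.

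**Figure D2:**
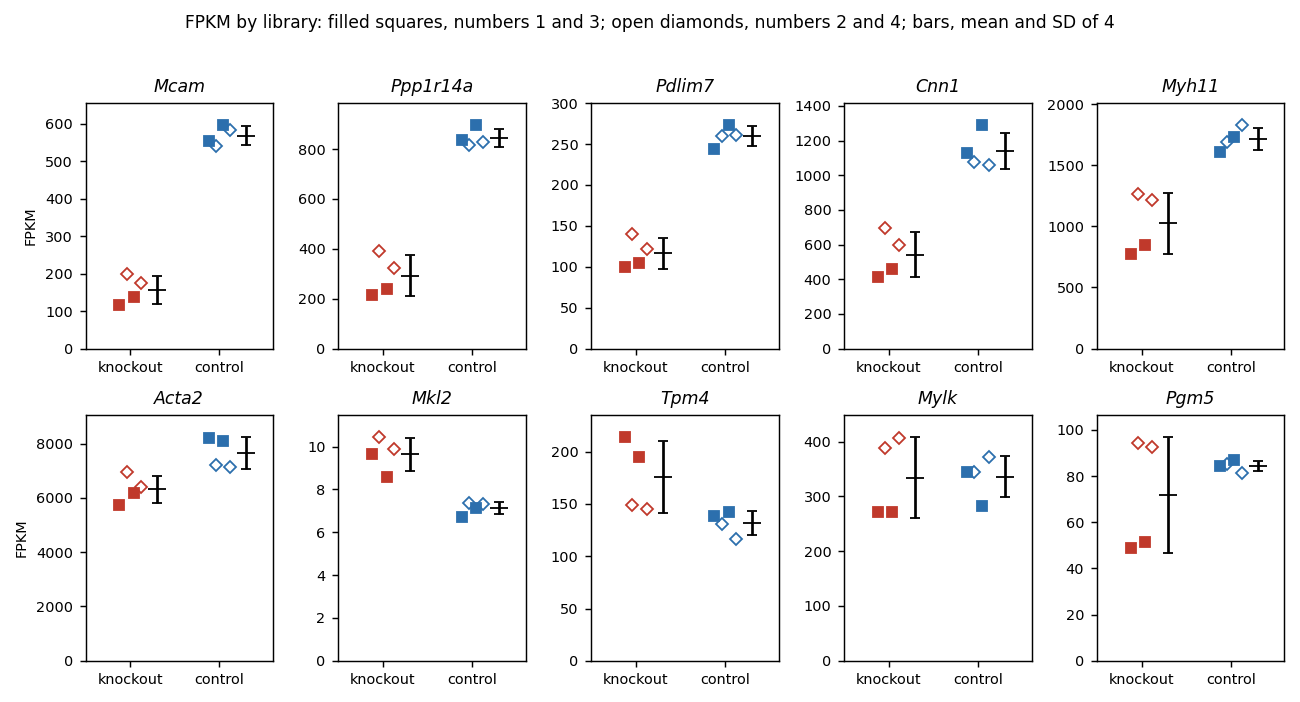
FPKM of 10 of the genes in each library, with the Tsc1 knockout left of the control in every panel; filled squares are libraries 1 and 3, open diamonds are libraries 2 and 4, and the bars give the mean and SD of 4. Mcam, Ppp1r14a, Pdlim7, Cnn1 and Myh11 show a gap between the groups with the filled squares lowest in the knockout, while for Pgm5 and Mylk the knockout splits into a low pair and a high pair around the controls.

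The Ppp1r12 subunits of myosin phosphatase and its inhibitor Ppp1r14a fell, while Mylk, Rhoa, Rock1 and Rock2 did not pass the test. Of the 8 genes of this group 4 fell and 4 did not pass the test, with a median log2 difference of -0.25. The catalytic subunit gene Ppp1cb, outside the 41 and named after its value was seen, did not pass (log2 difference -0.16, limma adjusted p = 0.232). Mylk (chromosome 16, 34745199 to 35002436), the light chain kinase, had 271, 388, 271 and 407 FPKM in knockouts 1 to 4, against 345, 344, 283 and 372 FPKM in controls 1 to 4. Its log2 difference was -0.03 (SE 0.15, limma adjusted p = 0.911), with knockouts 2 and 4 above every control and knockouts 1 and 3 below every control. Its sign was not stable, since the value was 0.06 without knockout 1 and without knockout 3, and 0.02 without control 4. Mylk also encodes telokin, a short product of the same gene that these values do not separate. Rhoa had 282 to 291 FPKM in knockouts and 279.9 to 299 FPKM in controls, and its log2 difference was -0.02 (SE 0.05). Rock1 had 119 to 147 FPKM in knockouts and 119 to 166 FPKM in controls, and Rock2 had 40.8 to 49.4 FPKM in knockouts and 44.2 to 49.9 FPKM in controls. For Rhoa, Rock1 and Rock2 the groups overlapped, with log2 differences between -0.13 and -0.02.

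Ppp1r14a (chromosome 7, 29289320 to 29293390) encodes the small inhibitor that, once phosphorylated by protein kinase C, blocks myosin phosphatase and sensitises smooth muscle to calcium. It had 216, 393, 238 and 324 FPKM in knockouts 1 to 4, against 835, 817, 897 and 830.2 FPKM in controls 1 to 4. It averaged 293 ± 81.4 FPKM in knockouts and 845 ± 35.5 FPKM in controls (SD, n = 4 each), a log2 difference of -1.57 (SE 0.17, limma adjusted p = 3.08e-04). Every knockout lay far below every control, and its rank by level was 218 in knockouts and 71 in controls. Ppp1r12a (chromosome 10, 108162092 to 108279985), the subunit that targets the phosphatase to myosin, had 103, 160.0, 92.0 and 142 FPKM in knockouts 1 to 4, against 192, 211, 167 and 185 FPKM in controls 1 to 4. It fell by 0.63 on the log2 scale (SE 0.17, limma adjusted p = 0.0211) without overlap, and the call was lost without knockout 1 (-0.55) or control 2 (-0.58). Its relatives Ppp1r12b and Ppp1r12c fell at the edge of the threshold. Ppp1r12b had 18.2, 29.9, 21.6 and 28.6 FPKM in knockouts 1 to 4, against 36.5, 30.3, 34.5 and 32.4 FPKM in controls 1 to 4 (log2 difference -0.45, SE 0.15, limma adjusted p = 0.0455). Ppp1r12c, whose groups overlapped, had 80.8 to 111 FPKM in knockouts and 103 to 139 FPKM in controls (log2 difference -0.38, SE 0.13, limma adjusted p = 0.0481). The Ppp1r12b call was lost without knockout 1 or 3 or any 1 control, with values of -0.32 to -0.50, and the Ppp1r12c call without knockouts 1, 3 or 4 or controls 2, 3 or 4, with values of -0.31 to -0.41.

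SRF and its coactivators were expressed far below the filament genes, and of these 4 genes 1 fell and 1 rose. Mkl2 (chromosome 16, 13256056 to 13417529), which encodes MRTF-B, had 9.67, 10.4, 8.58 and 9.89 FPKM in knockouts 1 to 4, against 6.72, 7.36, 7.15 and 7.30 FPKM in controls 1 to 4, and rose by 0.39 on the log2 scale (SE 0.07, limma adjusted p = 0.00304). It was the single gene of the 41 that rose, with every knockout above every control. Mkl1 (chromosome 15, 81012281 to 81190736), which encodes MRTF-A, had 9.24, 10.1, 8.71 and 9.01 FPKM in knockouts 1 to 4, against 10.7, 11.8, 10.8 and 10.5 FPKM in controls 1 to 4. It fell by 0.22 (SE 0.06, limma adjusted p = 0.0301), also without overlap, and the call was lost when any 1 library other than knockout 2 or control 4 was left out, with values of -0.18 to -0.23. Srf (chromosome 17, 46546838 to 46558267) had 30.9, 37.8, 29.9 and 35.5 FPKM in knockouts 1 to 4, against 37.0, 42.8, 41.2 and 38.8 FPKM in controls 1 to 4. Its log2 difference of -0.25 (SE 0.09, limma adjusted p = 0.0531) missed the threshold with all libraries and passed without knockout 2 (-0.31). Myocd (chromosome 11, 65173608 to 65269989), myocardin, had 18.8, 22.4, 14.2 and 20.2 FPKM in knockouts 1 to 4, against 27.9, 25.5, 28.1 and 13.0 FPKM in controls 1 to 4. Control 4 lay below every knockout and the other controls above every knockout. With control 4 the Myocd log2 difference was -0.27 (SE 0.24, limma adjusted p = 0.422), and without it -0.52 with an adjusted p of 0.0276.

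Among the 14 intermediate filament, dense body and adhesion genes, which anchor actin filaments within the cell and to the membrane, 5 fell and 9 did not pass the test, with a median log2 difference of -0.38. Mcam (chromosome 9, 44134658 to 44142727), a cell adhesion molecule of the immunoglobulin family found on vascular smooth muscle and on endothelium, showed the largest difference of the 41. It had 117, 199, 136 and 175 FPKM in knockouts 1 to 4, against 552, 539.8, 596 and 583 FPKM in controls 1 to 4. It averaged 157 ± 37.3 FPKM in knockouts and 568 ± 26.1 FPKM in controls (SD, n = 4 each), a log2 difference of -1.88 (SE 0.15, limma adjusted p = 7.95e-05). Its rank by level was 408 in knockouts and 117 in controls. Pdlim7 (chromosome 13, 55497487 to 55513473), a PDZ and LIM domain protein of actin filaments, had 99.6, 140.4, 104 and 121 FPKM in knockouts 1 to 4, against 244, 260.1, 273 and 260.4 FPKM in controls 1 to 4. Its log2 difference was -1.16 (SE 0.10, limma adjusted p = 1.28e-04), and the knockouts stayed well below the controls. Of its relatives Pdlim3 had 149 to 212 FPKM in knockouts and 227 to 293 FPKM in controls and fell by 0.59 (SE 0.13, limma adjusted p = 0.00856). Pdlim5 had 66.3 to 78.6 FPKM in knockouts and 57.8 to 89.3 FPKM in controls, with a log2 difference of -0.04 (SE 0.13). Ldb3, which binds alpha-actinin at the Z discs of striated muscle, had 34.1 to 49.5 FPKM in knockouts and 56.1 to 64.6 FPKM in controls and fell by 0.53 (SE 0.11, limma adjusted p = 0.00756).

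Des, Synpo2, Pgm5 and Lpp are given by library, since their knockouts differed widely among themselves. Des (chromosome 1, 75360292 to 75368579), the muscle intermediate filament, had 15.1, 27.1, 13.6 and 26.2 FPKM in knockouts 1 to 4, against 40.2, 35.1, 38.7 and 33.2 FPKM in controls 1 to 4. It fell by 0.87 on the log2 scale (SE 0.21, limma adjusted p = 0.0146), and the knockouts formed a low pair, 1 and 3, and a higher pair, 2 and 4, that both lay under the controls. Synpo2, an actin-binding protein of dense bodies, had 69.9, 122, 84.4 and 137 FPKM in knockouts 1 to 4, against 158, 131, 163 and 144 FPKM in controls 1 to 4. Its log2 difference of -0.57 (SE 0.20, limma adjusted p = 0.0538) missed the threshold, and passed without knockout 2 (-0.67) or knockout 4 (-0.73). Pgm5, aciculin, a protein of adherens junctions with actin, had 48.7, 94.4, 51.4 and 92.4 FPKM in knockouts 1 to 4, against 84.2, 85.2, 86.9 and 81.4 FPKM in controls 1 to 4. Knockouts 1 and 3 lay below all controls and knockouts 2 and 4 above them, and the log2 difference over all was -0.30 (SE 0.22, limma adjusted p = 0.323). Lpp, a LIM protein of focal adhesions, had 65.0, 109, 73.8 and 109.6 FPKM in knockouts 1 to 4, against 115, 119.9, 110.4 and 135 FPKM in controls 1 to 4. The Lpp groups did not overlap, but the log2 difference of -0.45 (SE 0.17, limma adjusted p = 0.0733) did not pass with all libraries and did so without knockout 2 or knockout 4 (both -0.56).

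The other 5 genes of this group had differences that did not pass and groups that overlapped. The LIM-only proteins Csrp1 and Csrp2, which bridge SRF with other factors in smooth muscle, were abundant. Csrp1 had 1505 to 2129 FPKM in knockouts and 1862 to 2187 FPKM in controls (log2 difference -0.17, SE 0.12), and Csrp2 had 1309 to 1678 FPKM in knockouts and 1479.8 to 1877 FPKM in controls (-0.17, SE 0.10). Csrp1 ranked 16th by level in both genotypes. Fhl1, a LIM protein with a CArG box upstream of the first of its 2 listed starts, had 839 to 973 FPKM in knockouts and 964 to 1029 FPKM in controls (-0.15, SE 0.06), and passed without knockout 4 (-0.19). Synm, synemin, a partner of desmin, had 10.3 to 13.6 FPKM in knockouts and 12.7 to 15.9 FPKM in controls (-0.19, SE 0.10). Nexn, nexilin, an actin-binding protein, had 129.6 to 186 FPKM in knockouts and 136 to 182 FPKM in controls (-0.07, SE 0.13).

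Knockouts 1 and 3 were lower than knockouts 2 and 4 for 34 of the 41 genes, against 32.6% of all tested genes, and higher for 3, Tpm4, Cnn2 and Nexn, against 27.1%. The controls did not repeat this, since controls 1 and 3 were lower than controls 2 and 4 for 7 of the 41, against 30.0% of all tested genes. The labels say nothing of what the numbers stand for, so a shared litter, day or batch cannot be told apart from other differences between the libraries. Within the odd-numbered libraries (2 against 2) 26 of the 41 genes fell, against 12.0% of all tested genes, and 1 rose, Tpm4, against 13.6%, with a median log2 difference of -0.61. Within the even-numbered libraries (2 against 2) 14 of the 41 fell, against 12.3%, and 1 rose, Mkl2, against 13.3%, with a median of -0.20. Over all tested genes the medians were 0.01 in odd and 0.00 in even numbers. In both subsets 13 of the 41 fell, and 38 differences were negative in odd numbers and 34 in even numbers. The matching shares of all tested genes are not given for these counts.

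Mcam, Ppp1r14a, Cnn1 and Myh11 fell within both pairs of numbers, each with a smaller difference in even numbers. So did Pdlim7 (-1.33 in odd and -0.99 in even numbers) and Tpm2 (-1.10 and -0.78). These genes were picked after their differences over the same libraries were seen, so the pairs are no independent check. Mcam differed by -2.18 on the log2 scale in odd and -1.58 in even numbers (limma adjusted p = 0.00161 and 0.00362). Ppp1r14a differed by -1.93 in odd and -1.20 in even numbers (limma adjusted p = 0.00157 and 0.00635), and Cnn1 by -1.47 in odd and -0.73 in even numbers (limma adjusted p = 0.00275 and 0.0120). Myh11 differed by -1.04 in odd and -0.50 in even numbers (limma adjusted p = 0.00357 and 0.0181). Acta2, by contrast, fell within odd numbers (-0.45, limma adjusted p = 0.0263) and did not pass within even numbers (-0.10, limma adjusted p = 0.520). Tagln fell in odd numbers (-0.61) and had -0.30 in even numbers, where the adjusted p was 0.0978, and Myl9 fell in odd numbers (-0.58) and had -0.25 in even numbers, with an adjusted p of 0.123.

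Whether the genotype difference itself depended on the number was tested with limma's interaction term, which passed for 4 of the 41 genes, against 1.62% of all tested genes. For 36 of the 41 the difference was the more negative in odd numbers. The matching share of all tested genes is not given, so this count is not read as particular to the 41. Des differed by -1.40 in odd and -0.34 in even numbers, an interaction of -1.05 (SE 0.10, limma adjusted p = 0.00687). Pgm5 differed by -0.76 in odd and 0.16 in even numbers (interaction -0.92, SE 0.08, limma adjusted p = 0.00635). Synpo2 differed by -1.05 in odd and -0.09 in even numbers (-0.96, SE 0.15, limma adjusted p = 0.0313), and Ppp1r12b by -0.81 in odd and -0.10 in even numbers (-0.71, SE 0.13, limma adjusted p = 0.0463). These 4 genes fell in odd numbers, and of them Des also fell in even numbers. For Mylk, Cnn2, Myocd, Rock2 and Pdlim5 the sign also differed between odd and even numbers, but the interaction did not pass. Their values were -0.20 and 0.15 for Mylk, 0.23 and -0.16 for Cnn2 and -0.75 and 0.21 for Myocd. Rock2 had -0.18 and 0.11, and Pdlim5 had -0.20 and 0.13.

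**Figure D3:**
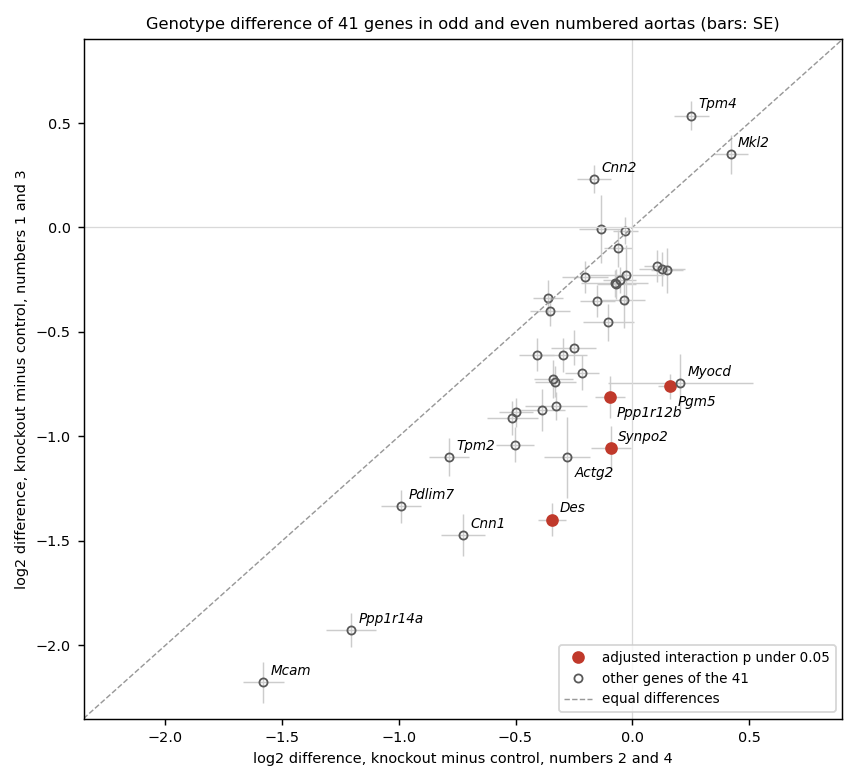
Log2 difference, knockout minus control, of each of the 41 genes among libraries 2 and 4 (horizontal axis) and among libraries 1 and 3 (vertical axis), with SE bars; the dashed line marks equal differences. Most points lie below the line, and the 4 filled points, Des, Synpo2, Pgm5 and Ppp1r12b, have an adjusted interaction p under 0.05.

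Because scaling between libraries cancels within a library, 14 ratios of FPKM between related genes were compared between genotypes. The test was exact and two-sided and permuted genotype among the 8 libraries, which allows 70 assignments and no p under 0.0286. The groups did not overlap for 9 ratios, each with that smallest exact p of 0.0286 and an adjusted p over the 14 ratios of 0.0444. A ratio shows that the genes changed unequally and not which of them changed. Of the ratios that set a cytoskeletal or broadly expressed form against a contractile one, Actb/Acta2 overlapped between the groups (1.13-fold higher geometric mean in knockouts, exact two-sided p = 0.200), and those given next did not overlap. Tpm4/Tpm2 was 0.357, 0.168, 0.310 and 0.184 in knockouts 1 to 4, against 0.113, 0.0923, 0.101 and 0.0795 in controls 1 to 4, a 2.53-fold higher geometric mean. Cnn2/Cnn1 was 0.735, 0.330, 0.660 and 0.347 in knockouts 1 to 4, against 0.219, 0.222, 0.208 and 0.236 in controls 1 to 4, or 2.19-fold higher. Tpm4/Tpm1 was 2.12-fold higher in knockouts. Pdlim5/Pdlim7, a ratio between related PDZ and LIM genes and not of that kind, was 2.19-fold higher. Myh10/Myh11, which sets a nonmuscle myosin heavy chain against the smooth muscle one, was 0.204, 0.104, 0.205 and 0.115 in knockouts 1 to 4, against 0.0665, 0.0531, 0.0678 and 0.0461 in controls 1 to 4, or 2.60-fold higher. In the knockouts these ratios were higher in libraries 1 and 3 than in 2 and 4, and the lower pair still exceeded every control.

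Other ratios changed with little spread among the knockouts. Mkl2/Mkl1 was 1.05, 1.03, 0.986 and 1.10 in knockouts 1 to 4, against 0.627, 0.622, 0.665 and 0.695 in controls 1 to 4, or 1.60-fold higher. Ppp1r14a/Ppp1r12a, the phosphatase inhibitor set against the targeting subunit, was 2.09 to 2.59 in knockouts and 3.88 to 5.37 in controls, 0.523 times as high. Mylk/Ppp1r12a, the kinase against the phosphatase subunit, was 2.43 to 2.94 in knockouts and 1.64 to 2.02 in controls, or 1.52-fold higher, and Myl6/Myl9 was 0.822 to 0.900 in knockouts and 0.995 to 1.12 in controls, 0.813 times as high. Among the knockouts the pairs 1 and 3, and 2 and 4, did not stand apart for these 4 ratios. Among the controls they did for Myl6/Myl9, at 1.12 and 1.11 in controls 1 and 3 against 1.04 and 0.995 in controls 2 and 4. The ratios Csrp2/Csrp1, Actg2/Acta2, Ppp1r12b/Ppp1r12a, Rock2/Rock1 and Actb/Acta2 overlapped between the groups, with exact two-sided p of 1, 0.114, 0.371, 0.457 and 0.200 in that order. With 1 library left out the smallest possible exact p is 0.0571, so no ratio can pass there.

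**Figure D4:**
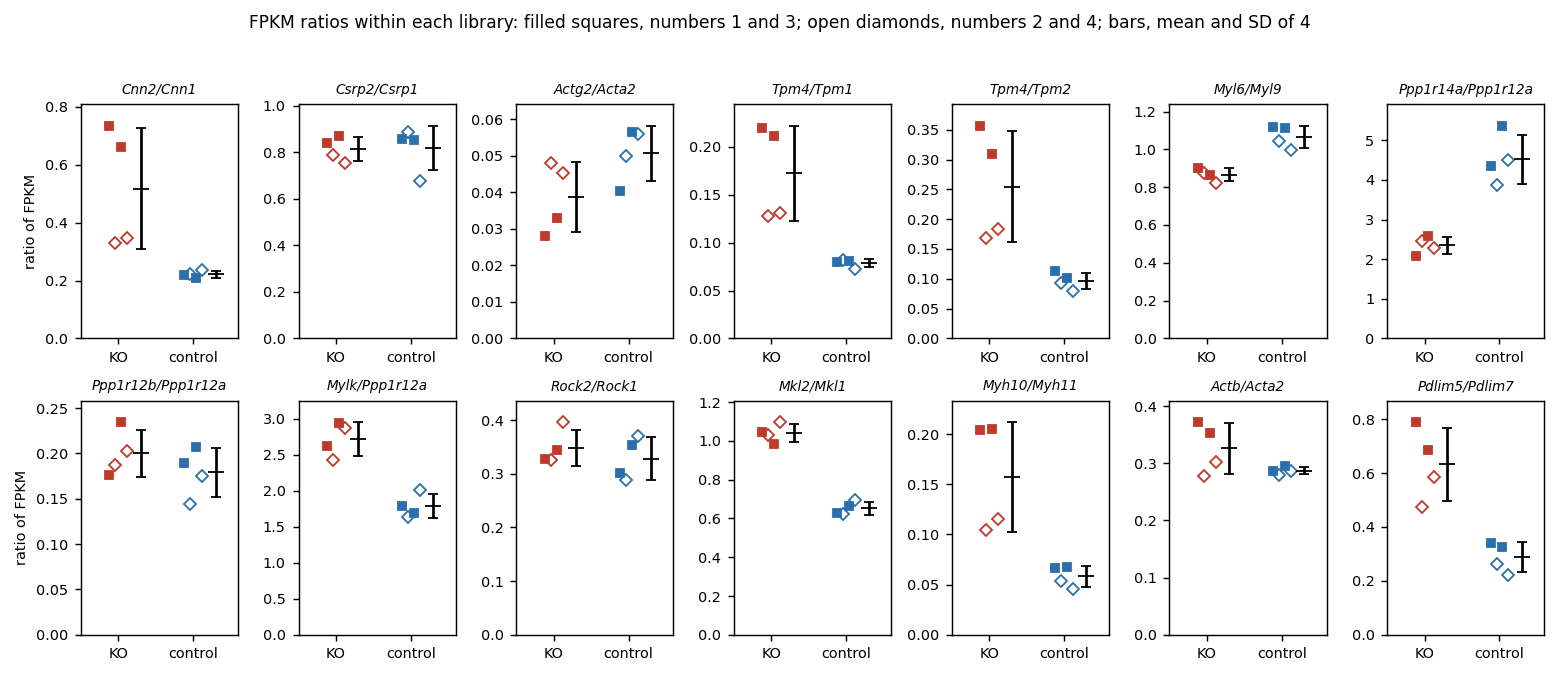
The 14 FPKM ratios in each library, with the Tsc1 knockout left of the control; filled squares are libraries 1 and 3, open diamonds are libraries 2 and 4, and the bars give the mean and SD of 4. The knockout lies wholly above the control for Cnn2/Cnn1, Tpm4/Tpm1, Tpm4/Tpm2, Mylk/Ppp1r12a, Mkl2/Mkl1, Myh10/Myh11 and Pdlim5/Pdlim7, and wholly below it for Myl6/Myl9 and Ppp1r14a/Ppp1r12a.

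A further 83 genes of the same pathways were counted in 5 lists. Of the 76 that were tested 15 rose, or 19.7%, against 17.1% of all tested genes, and 17 fell, or 22.4%, against 15.0%, with a median log2 difference of -0.03 beside 0.01 over all tested genes. The share that rose was near that of all tested genes, and the share that fell was higher, a difference that was not tested. By list 5.88% to 38.5% rose and 0% to 36.8% fell. The same 17.1% and 15.0% are the background of each count in the 5 lists and in the marker lists after them. Among 8 tested cytoplasmic actins, nonmuscle myosins and light chains 2 rose. Myh10, the heavy chain of nonmuscle myosin IIB, averaged 151 ± 18.9 FPKM in knockouts and 99.7 ± 15.4 FPKM in controls (SD, n = 4 each; log2 difference 0.60, limma adjusted p = 0.00659). Myl4, an atrial light chain, had 46.5, 12.3, 12.5 and 39.3 FPKM in knockouts 1 to 4, against 7.65 to 10.7 FPKM in controls (1.34, limma adjusted p = 0.0381). Its 2 high values fell in knockouts 1 and 4, the same libraries in which the cardiac myosin Myh6, named after its values were seen, stood at 25.6 and 17.0 FPKM, against 0.389 and 1.58 FPKM in knockouts 2 and 3 and at most 1.37 FPKM in controls. The part of attached cardiac tissue in the Myl4 value was not tested.

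Of 19 tested actin crosslinkers and turnover factors 5 rose and 7 fell. Flnc, filamin C, averaged 25.5 ± 7.17 FPKM in knockouts and 62.7 ± 14.5 FPKM in controls (SD, n = 4 each; log2 difference -1.28, limma adjusted p = 0.00217). Sorbs2, a scaffold of Z discs and stress fibres, averaged 8.84 ± 2.38 FPKM in knockouts and 22.7 ± 4.59 FPKM in controls (-1.28, limma adjusted p = 0.00133). Actn4, a nonmuscle alpha-actinin, had 225 to 257 FPKM in knockouts and 473 to 522 FPKM in controls (-1.05, limma adjusted p = 1.95e-05). Of 19 tested phosphatase catalytic subunits, phosphatase inhibitors and kinases 2 rose and 6 fell. Ppp1r14b, a broadly expressed relative of the inhibitor Ppp1r14a, moved the other way and averaged 89.9 ± 17.2 FPKM in knockouts and 51.0 ± 2.83 FPKM in controls (0.79, limma adjusted p = 0.00196). Mylk4 (-0.46) and the kinase gene Cdc42bpa (-0.41) fell. Of 13 tested RhoA exchange factors, GTPase-activating proteins and dissociation inhibitors 5 rose and 2 fell. Arhgef12, an exchange factor that activates RhoA, averaged 61.3 ± 3.51 FPKM in knockouts and 38.8 ± 1.37 FPKM in controls (0.65, limma adjusted p = 1.20e-04), while Arhgap42, a GTPase-activating protein that switches RhoA off in smooth muscle, averaged 2.54 ± 0.280 FPKM in knockouts and 1.26 ± 0.0924 FPKM in controls (0.65, limma adjusted p = 8.31e-04). Arhgap1, another GTPase-activating protein, rose by 0.59. Of 17 tested SRF partners and repressors 1 rose and 2 fell, with Prrx1 at 0.57, Tead3 at -0.52 and Mef2c at -0.36.

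Markers of other cell types moved as well. The part of endothelial, fibroblast, macrophage and fat cells in these results was not tested, and striated muscle alone was entered as a covariate. Of 11 tested endothelial markers 8 fell. The sum over the 12 listed was 164, 221, 163 and 228 FPKM in knockouts 1 to 4, against 282, 373, 333 and 369 FPKM in controls 1 to 4, without overlap, and its 3 highest members were Pecam1, Egfl7 and Esam. Mcam, which is also an endothelial gene, fell with them. Of 10 adventitial fibroblast markers 6 fell, with sums of 843 to 1181 FPKM in knockouts and 1241 to 1648 FPKM in controls, led by Dcn, Clec3b and Mfap5. With limma 0 of 11 macrophage markers passed after adjustment and 1 was higher at an unadjusted p under 0.05. Of their differences 10 were negative, beside 5945 of all 12107 tested genes, with a median of -0.20. Their sums were 219 to 301 FPKM in knockouts and 259 to 369.6 FPKM in controls, led by Lyz2, C1qa and C1qb. No marker of these lists was at 0 in all libraries.

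Striated muscle markers summed highest in knockouts 1 and 4 and in control 4, but through partly different markers. Myh6 had 25.6 and 17.0 FPKM in knockouts 1 and 4 and 0.129 FPKM in control 4. Acta1 had 0.116 and 0.0731 FPKM in knockouts 1 and 4 and 65.0 FPKM in control 4. Both were picked after their values were seen, and Mb was high in each of these libraries. The sum and the covariate given next do not separate such markers. The sum over 30 striated muscle markers was 91.2, 14.0, 15.9 and 74.4 FPKM in knockouts 1 to 4, against 30.4, 32.4, 39.1 and 381 FPKM in controls 1 to 4, with Mb, Tnnt3 and Acta1 at the highest levels. Of 16 tested 4 fell, Actn2, Ckm, Tnnt1 and Mybpc2. Des and Ldb3 are also expressed in striated muscle, and the part of attached striated muscle in their values was not tested. In control 4, with the highest striated muscle sum, they stood at 33.2 FPKM (Des) and 56.1 FPKM (Ldb3), the lowest control value of each. For Des both even-numbered controls, 2 and 4, lay below controls 1 and 3. Without control 4 and knockouts 1 and 4, the libraries with the highest sums, 9 of the 41 genes fell, against 6.05% of all tested genes, and 0 rose with limma, against 7.09% (1 was higher at an unadjusted p under 0.05). The median log2 difference was then -0.35, with 5 libraries left. The 9 were Myl6 (-0.69), Tpm1 (-0.71), Tpm2 (-0.85), Cnn1 (-1.04), Cald1 (-0.52), Ppp1r14a (-1.47), Pdlim3 (-0.62), Pdlim7 (-1.09) and Mcam (-1.76). Myh11 had -0.69 there with an adjusted p of 0.0585. This alternative was chosen after the data were seen. A planned fit of all libraries took the mean level of striated muscle markers as a covariate. In it 18 of the 41 genes fell, against 1600 of all tested genes. The calls of Actg2 (-0.70), Ppp1r12b (-0.48) and Ppp1r12c (-0.37) were lost there. Of 11 tested fat cell markers 1 fell, Retn, with sums of 408 to 712 FPKM in knockouts and 405 to 1121 FPKM in controls, led by Fabp4, Plin4 and Lpl.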

How the data were processed

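RNA-seq was done on 8 libraries from thoracic aortas, 4 per genotype. The authors deposited FPKM per gene symbol, 1 column per library. Per the submitters' processing notes the tools were TopHat2, Cufflinks and Cuffdiff and the build was mm10, with no version. Annotation, strand setting and any scaling of libraries: not given in the sources used here. Exons of 12 of the 41 genes overlap those of another gene in GENCODE M21, mostly on the opposite strand, and 6 of these partners are in the table, so their reads may not be fully separated. A pseudocount of 1 was added before log2, and limma 3.58.1 was run on all genes that averaged 1 FPKM or more across the 8 libraries (R 4.3.3; lmFit, eBayes with trend, genotype as the only term, two-sided, Benjamini-Hochberg over 12107 genes). Fold differences of low genes are understated on this scale. Relative depth was read from genes under 0.3 FPKM and is rough. Every member is named, of each further pathway list at most the 3 largest differences past the threshold, and of each marker list the 3 highest means. The test was checked on data simulated with independent noise between libraries. It recovered 58% of 100 changes of 0.5 on the log2 scale and 94% of 100 changes of 1. Deviations shared by odd or even number were not simulated. Python 3.11.15 and numpy 2.4.6 gave ratios and permutation tests. The members and lists were chosen with earlier results of these data known. Alternatives changed the pseudocount, filter, scaling, moderation, covariates and libraries. Protein sequences were not used here.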

Additional observations from a re-analysis of the deposited data

Results flagged for a closer look

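Among 82 groups of 4 libraries (41 genes in 2 genotypes), 1 held a library far from the other 3. Chance gives about 1 group in 20, so the 1 seen is fewer than that rate gives over 82 groups. Myocd was at 13.0 FPKM in control 4, against 25.5 to 28.1 FPKM in the other controls, and the gap made up 0.873 of the range of the group. The striated muscle sum was highest in the same library, at 381 FPKM, and its part in the Myocd value was not tested.

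The genotype difference differed between odd and even numbers, by limma's interaction term, for Des (-1.05), Synpo2 (-0.96), Pgm5 (-0.92) and Ppp1r12b (-0.71), all more negative among libraries 1 and 3. What the numbers stand for is not given in the labels, and the cause was not tested.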

How the results depend on the processing

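Over 22 alternatives to the fit, 8 of the 22 genes that passed kept their call in every one (Myl6, Tpm1, Tpm2, Cnn1, Cald1, Ppp1r14a, Pdlim7 and Mcam), and none of the 22 reversed. Of the 19 others 10 never passed. The count of the 41 that fell was 21 in the main fit and 15 to 24 with 1 library left out. It was 15 without a filter on low values, 16 after quantile normalization, 18 with a striated muscle covariate and 19 without a trend in the moderation. Without control 4 and knockouts 1 and 4 it was 9. Over all tested genes the counts were 1819 in the main fit and 1454 to 1620 with 1 library left out. They were 1860 of a larger set without the filter, 1883 after quantile normalization and 1600 with the covariate. They were 1804 without the trend and 733 without the 3 libraries. Quantile normalization ended the calls of Myh11 (-0.47), Acta2 (-0.64), Actg2 (-0.53), Myl9 (-0.21), Flna (-0.22) and Ppp1r12c (-0.30), and leaving out the filter those of Acta2, Actg2, Myl9, Tagln, Ppp1r12b and Ppp1r12c. Within even numbers alone Ldb3 (-0.33) and Pdlim3 (-0.33) were also lost. The count that rose was 1 to 2 with 1 library left out, 0 without those 3 libraries, and 2 with a pseudocount of 0.1, a mean of at least 5 FPKM, quantile normalization, array weights, the replicate block or odd and even number as a covariate. Over all tested genes 1696 to 1889 rose with 1 library left out and 858 without the 3 libraries. Without the 3 libraries, 6 of the further pathway genes fell and 9 rose. The interaction passed for 2 genes without the filter (Ppp1r12b and Synpo2 were lost) and for 7 after quantile normalization. Counts over all tested genes are not given for these interaction settings. Without a trend in the moderation the calls of Ppp1r12b and Ppp1r12c were lost, and the Ppp1r12b interaction had a limma adjusted p of 0.0660.

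The sign reversed only for genes that had not passed. After quantile normalization the log2 differences were 0.12 for Lmod1, 0.11 for Mylk, 0.0772 for Rhoa, 0.00116 for Pdlim5, 0.13 for Csrp2 and 0.15 for Fhl1. Among even numbers they were -0.16 for Cnn2, 0.15 for Mylk, 0.11 for Rock2, 0.21 for Myocd, 0.13 for Pdlim5 and 0.16 for Pgm5. Mylk was at 0.00904 with a striated muscle covariate and 0.00738 without the 3 libraries. With 1 library left out the ranges were -0.0463 to 0.136 for Cnn2, -0.130 to 0.0649 for Mylk, -0.0850 to 0.00434 for Rock2, -0.150 to 0.0571 for Pdlim5 and -0.178 to 0.00514 for Nexn. The causes were not tested.

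Same-numbered libraries correlated at 0.0656 to 0.173 in their deviations from the group means, 3 of 4 above 0.1. Of the 4 knockouts 1 correlated best with its own number. The main fit treated the libraries as unpaired. Knockouts and controls that were both odd or both even correlated at 0.0160 to 0.173 in all 8 pairs, and the other 8 pairs at -0.193 to -0.0547. Libraries of both genotypes thus shared deviations by odd or even number, for which the main fit has no term. With the replicate block 22 of the 41 genes fell, 19 of them among the 21: Acta2 (limma adjusted p = 0.0568) and Ppp1r12b (0.0738) were lost, Smtn (0.00399), Srf (0.0340) and Lpp (0.0282) were added, and Tpm4 (0.0135) rose. With a term for odd against even numbers 25 fell. Over all tested genes 2122 fell with the block and 2353 with the odd or even term, against 1819 without either. Within pairs of one number no ratio can reach an exact p under 0.125. Absolute depth is unknown, and with 4 libraries per group small differences in the low genes (Mkl1, Mkl2, Synm) rest on FPKM near 10.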
